A study of Homo sapiens with 4 samples.

Results

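The genes described here are the conjugation enzymes and carboxyl esterases of Huh7 cells, a human hepatocellular carcinoma line. They were taken by symbol: every gene listed in the table of the families UGT1A, UGT2A and UGT2B, SULT, GST (classes A, K, M, O, P, T and Z), MGST, CES and AADAC. The rule uses no measured value, though these families were picked with earlier results of these data known, and members such as CES1 and GSTT1 were not analysed here. The rule found 59 of the 18806 genes in the table, and 35 of them reached a mean of 1 TPM (a transcript level per length, scaled to sum to 1000000 in each library) over the 4 libraries and were tested. RNA-seq compared Cas9-carrying Huh7 cells given a guide without a target (sgNS, 2 libraries) with the same cells given a guide against METTL16, an RNA N6-methyladenosine methyltransferase (METTL16 KO, 2 libraries). All 4 libraries come from a Cas9 line grown from a single clone after blasticidin selection, the guides were delivered by lentivirus and selected with hygromycin. The titles number the libraries of each group 1 and 2, which was read as a replicate number, and which METTL16 guide each library carries is not stated there. The labels call the genotype a METTL16 knockdown.

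Conjugation makes lipid-soluble molecules easier to excrete by joining a polar group to them. UDP-glucuronosyltransferases (UGTs) of the endoplasmic reticulum add glucuronic acid to bilirubin, bile acids, steroids and drugs. Cytosolic sulfotransferases (SULTs) add sulfate, and glutathione S-transferases (GSTs, with the membrane-bound MGSTs) add glutathione to electrophiles. Carboxylesterases (CES) and arylacetamide deacetylase (AADAC) cut esters and amides, which often exposes the group that is then conjugated. The liver is a main site of all of these reactions.

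METTL16 itself was at 26.29 and 25.14 TPM in the sgNS libraries and 17.62 and 18.75 TPM in those of METTL16 KO. The groups did not overlap, and the difference was -0.50 on the log2(TPM + 0.1) scale (SE 0.062, n = 2 and 2, limma adjusted p = 2.4e-05). RNA level does not show how much protein was left. Over the whole table, 50.1% of all genes tested were higher and 25.6% lower in METTL16 KO at an adjusted p under 0.05. Across all genes tested the log2 fold change had a median of 0.16 in the deposited values and -0.033 after median-ratio scaling, so a change is best read relative to that median. Of 11 hepatocyte and hepatoma markers all were above 1 TPM in every library, 9 were higher in METTL16 KO and 2 (APOB and TF) were lower. Their summed level was 18791 and 18880 TPM in sgNS and 32755 and 32294 TPM in METTL16 KO. AFP went from a mean of 1765 to 10292 TPM and made up much of that rise. The rise ran in the same direction as most of the changes below, and the part of these markers in them was not tested. Markers of fibroblasts summed to 2.16 to 2.91 TPM and those of endothelium to 2.73 to 5.15 TPM. The leukocyte marker PTPRC was at 0.15 to 0.48 TPM, whereas LYZ was at 909.07 to 1553.29 TPM and lower in METTL16 KO (log2 fold change -0.74). CD14, of the same list, averaged 1.06 TPM in sgNS and 1.635 TPM in METTL16 KO. It was called higher (0.59), but not after median-ratio scaling. In bulk RNA, fewer cells of a kind and less RNA per cell cannot be told apart.

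Of the 35 conjugation and esterase genes tested, 22 (62.9%) were higher in METTL16 KO and 9 (25.7%) were lower, against 50.1% and 25.6% of all genes. The share that was lower is that of the background. At an unadjusted p under 0.01 and a change of at least 1 on the log2 scale, 9 (25.7%) were higher and 3 (8.57%) lower, against 7.69% and 3.75% of all genes. The 9 were UGT2A3, UGT2B15, AADAC, UGT1A1, UGT2B7, SULT1B1, UGT2B10, UGT2B11 and GSTO2, and the 3 were SULT1A1, GSTA1 and GSTM4. The median log2 fold change was 0.40, beside 0.16 over all genes. The groups did not overlap for 32 of the 35 genes (91.4%; 22 higher and 10 lower), beside 87.4% of all genes tested (56.8% higher and 30.7% lower). With median-ratio scaling 19 were higher and 11 lower, against 33.8% and 38.9% of all genes.

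**Figure D1:**
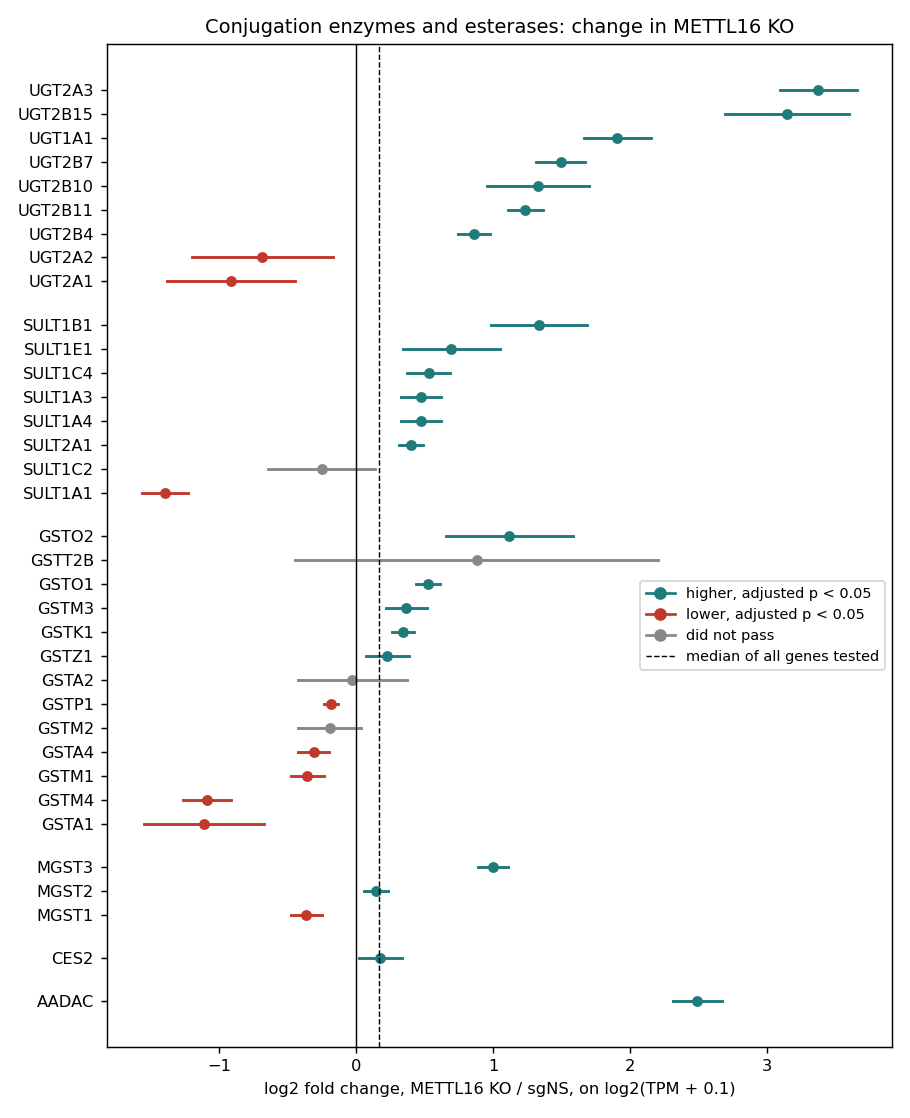
Log2 fold change (METTL16 KO over sgNS, on log2(TPM + 0.1), horizontal axis) of the 35 genes tested, grouped by family, with limma's 95% confidence interval as a bar. Green marks genes that were higher and red those that were lower at an adjusted p under 0.05, grey those that did not pass, and the dashed line is the median of all genes tested (0.16). Of the 9 UGT genes, 7 lie to the right of the line, while the GST genes spread to both sides.

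The UGT genes included those with the largest log2 fold changes, UGT2A3 and UGT2B15, though with a pseudocount of 1 AADAC (2.36) came after UGT2A3 (2.74) and ahead of UGT2B15 (1.91). Of 19 UGT genes 9 were tested, and 7 (77.8%) were higher and 2 (22.2%) lower in METTL16 KO, against 50.1% and 25.6% of all genes. All 9 kept these directions and calls under median-ratio scaling and quantile normalization. The 19 genes together summed to 109.25 and 118.84 TPM in sgNS and to 245.18 and 239.21 TPM in METTL16 KO, a log2 ratio of 1.09 (0.89 after median-ratio scaling). The family arose by gene duplication, so near-identical members can share reads, and the split between them depends on how the authors' quantification assigned such reads.

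The UGT2B genes lie with the UGT2A genes and a pair of SULT1 genes in 1 stretch of chromosome 4 (positions 68537173 to 69860145 on GRCh38). The bases just before the start site of 5 of these genes, all higher in METTL16 KO, are given here. They were picked because 4 of them hold the same palindromic letters. Each line is the 150 bases before the start site, 5′ to 3′ on the gene's strand, from RefSeq on GRCh38.p14, and capitals mark a match to GTTA and TAAC with any 5 bases between them.
UGT2B7, chr4:69096324-69096473, plus strand: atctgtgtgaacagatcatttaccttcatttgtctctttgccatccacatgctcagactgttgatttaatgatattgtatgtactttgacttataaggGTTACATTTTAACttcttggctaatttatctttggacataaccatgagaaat
UGT2B10, chr4:68815844-68815993, plus strand: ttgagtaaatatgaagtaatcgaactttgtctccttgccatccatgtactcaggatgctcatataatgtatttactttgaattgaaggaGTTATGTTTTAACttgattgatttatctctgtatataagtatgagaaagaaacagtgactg
UGT2B11, chr4:69214749-69214898, minus strand: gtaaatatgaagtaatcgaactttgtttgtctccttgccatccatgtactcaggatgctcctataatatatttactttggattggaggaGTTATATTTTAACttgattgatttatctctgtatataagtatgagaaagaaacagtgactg
UGT2B15, chr4:68670653-68670802, minus strand: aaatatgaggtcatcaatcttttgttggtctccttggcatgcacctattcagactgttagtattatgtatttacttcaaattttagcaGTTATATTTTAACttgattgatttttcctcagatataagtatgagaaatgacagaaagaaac
UGT2A3, chr4:68951805-68951954, minus strand: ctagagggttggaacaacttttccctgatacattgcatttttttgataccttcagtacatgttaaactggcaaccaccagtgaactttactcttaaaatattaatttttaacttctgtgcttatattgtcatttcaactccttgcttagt

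The match ends 40 bases before the start site in UGT2B7 and 49 or 50 bases before it in UGT2B10, UGT2B11 and UGT2B15. UGT2A3, which had the largest log2 fold change of the group, has no match in this window. The windows of UGT2B10 and UGT2B11 were identical at 96.6% of 146 aligned bases, and the other pairs of these 5 genes at 67.9% to 80.5%, so the 4 matches are copies in related sequence and not independent of each other. Within 250 bases before the start site, on either strand, the letters occur for 5 of the 47 member symbols with a promoter (10.6%). The fifth is UGT1A3. They occur in 83 of all 35116 promoters (0.236%). Members were counted once per symbol and all promoters singly, and a symbol can have several start sites, so these shares are not of like units. UGT2B4, SULT1B1 and SULT1E1, also higher in the chromosome 4 stretch, are not among the members with a match. Nor are UGT2A1 and UGT2A2, which were lower, though not every member had a promoter to search. The letters were chosen after the sequences had been seen, and a match is a description and not a bound site.

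UGT2B15, which glucuronidates androgens, was at 0.38 and 0.40 TPM with sgNS against 3.91 and 4.57 TPM after METTL16 KO, a log2 fold change of 3.14 (SE 0.20, adjusted p = 1.6e-07). With sgNS values this near the pseudocount of 0.1 the size depends on it, and it was 1.91 with a pseudocount of 1 and 3.41 with one of 0.01. Its near-identical neighbour UGT2B17 averaged under 1 TPM and was not tested, with 0 and 0.15 TPM in sgNS and 1.72 and 1.45 TPM in METTL16 KO. Reads of this pair can be assigned to either gene, and their sum was 0.38 and 0.55 TPM in sgNS and 5.63 and 6.02 TPM in METTL16 KO, so the direction does not depend on the split. UGT2B7, which conjugates morphine, many other drugs and steroids, was at 6.50 and 7.04 TPM in the sgNS libraries and 20.11 and 18.34 TPM in those of METTL16 KO. On the log2 scale the change was 1.49 (SE 0.081, adjusted p = 3.8e-08), with both METTL16 KO libraries far above both sgNS libraries. UGT2B10, an N-glucuronidating enzyme that acts on nicotine and cotinine, was at 1.44 and 1.51 TPM with sgNS against 4.36 and 3.39 TPM after METTL16 KO (log2 fold change 1.33, adjusted p = 2.7e-05). UGT2B11 was at 15.26 and 15.64 TPM in the sgNS libraries and 35.54 and 37.42 TPM in those of METTL16 KO (log2 fold change 1.23, adjusted p = 1.3e-08).

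UGT2B4, which glucuronidates bile acids, was the most abundant UGT in every library. It was at 73.92 and 83.45 TPM with sgNS against 144.14 and 140.95 TPM after METTL16 KO, a log2 fold change of 0.86 (SE 0.054, adjusted p = 1.2e-07). That was a smaller fold than those of the other 4 UGT2B genes tested, and its share of all UGT TPM was 67.7% and 70.2% in sgNS and 58.8% and 58.9% in METTL16 KO. The 5 UGT2B genes tested were all higher, with a median log2 fold change of 1.33, and the whole family of 7 summed to 97.54 and 108.4 TPM in sgNS and to 209.83 and 206.18 TPM in METTL16 KO.

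The UGT2A genes, of which UGT2A1 and UGT2A2 are best known from the nasal lining and UGT2A3 from gut and liver, did not move together. UGT2A3 was at 1.45 and 1.16 TPM in the sgNS libraries and 14.63 and 14.09 TPM in those of METTL16 KO, a log2 fold change of 3.37 or 10.3-fold (SE 0.13, adjusted p = 2.4e-09). UGT2A1 was at 1.98 and 2.10 TPM with sgNS against 0.89 and 1.20 TPM after METTL16 KO (log2 fold change -0.92, adjusted p = 2.2e-03). UGT2A2, which shares all but its first exon with UGT2A1, was at 1.61 and 1.34 TPM in the sgNS libraries and 0.98 and 0.78 TPM in those of METTL16 KO (log2 fold change -0.69, adjusted p = 0.020). The call for UGT2A2 was lost without sgNS library 1 (adjusted p = 0.12) and without METTL16 KO library 2 (adjusted p = 0.086). The sum of UGT2A1 and UGT2A2, which is free of the split of their shared exons, was 3.59 and 3.44 TPM in sgNS and 1.87 and 1.98 TPM in METTL16 KO, a log2 ratio of -0.87. With a pseudocount of 1 the log2 fold changes were -0.58 for UGT2A1 and -0.40 for UGT2A2. UGT2A3 made up 28.8% and 25.2% of UGT2A TPM in sgNS and 88.7% and 87.7% in METTL16 KO.

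UGT1A1, the bilirubin-conjugating enzyme, was at 4.29 and 3.39 TPM with sgNS against 14.74 and 14.39 TPM after METTL16 KO. The log2 fold change came to 1.91, or 3.75-fold (SE 0.11, adjusted p = 7.1e-08). The 9 UGT1A genes overlap in 1 locus of chromosome 2 (233617633 to 233773300) and differ only in their first exons, so reads from the shared exons have to be divided among them. The locus as a whole summed to 6.67 and 5.84 TPM in sgNS and to 18.85 and 16.96 TPM in METTL16 KO, whereas the 8 genes other than UGT1A1 summed to 2.38 and 2.45 TPM and to 4.11 and 2.57 TPM. Each of these 8 averaged under 1 TPM, and among them UGT1A3 alone reached 1 TPM in a library, at 0.08 and 0.10 TPM in the sgNS libraries and 1.18 and 0.42 TPM in those of METTL16 KO.

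**Figure D2:**
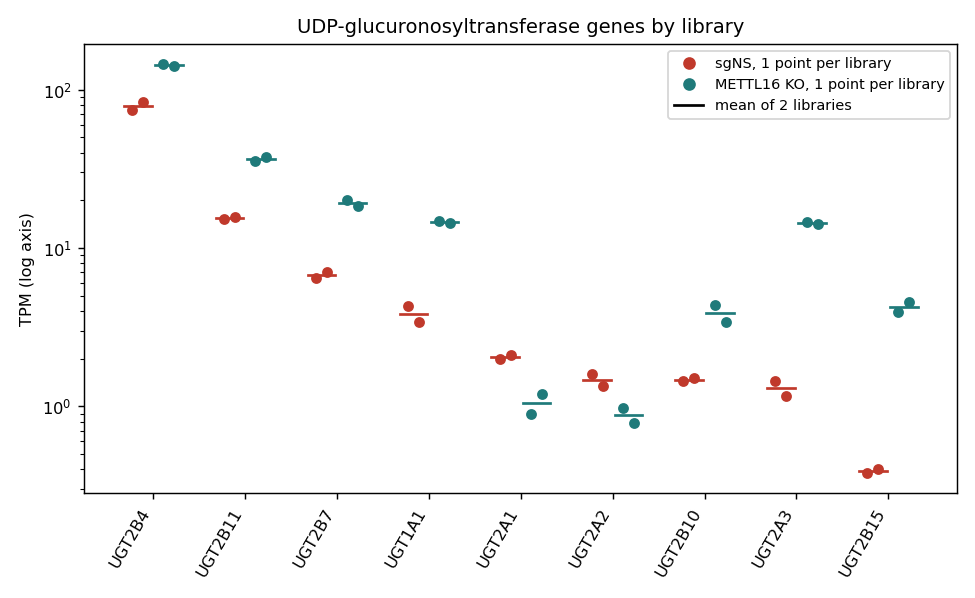
Level in TPM (log axis) of the 9 UGT genes tested in each of the 4 libraries, with 1 point per library and a line at each group's mean. The 2 METTL16 KO points lie above both sgNS points for 7 genes and below them for UGT2A1 and UGT2A2, and UGT2B4 is the highest of the genes in both groups.

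**Figure D3:**
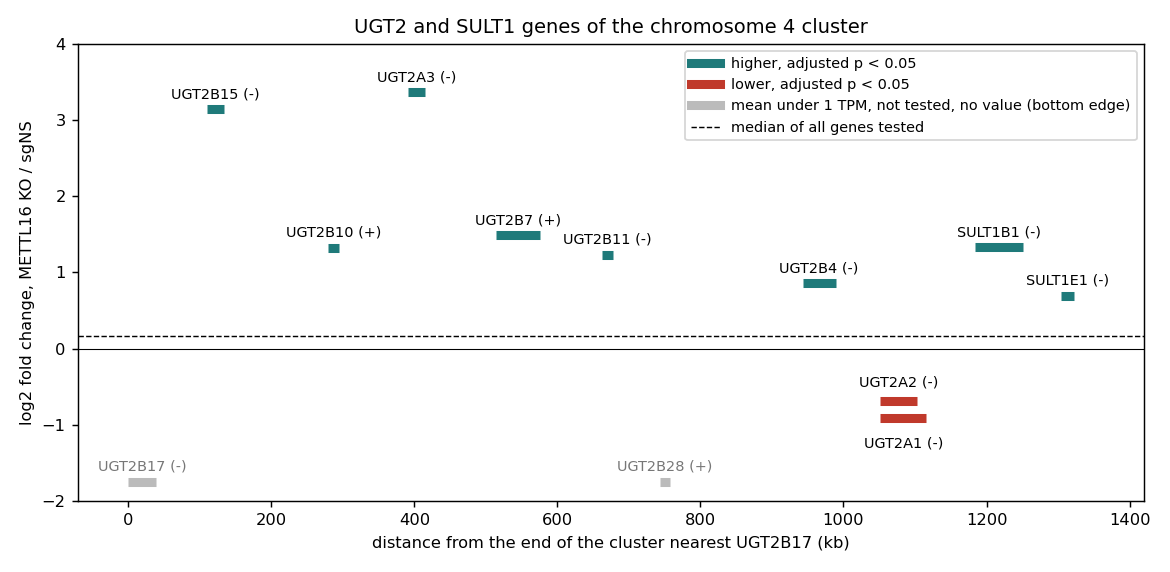
Log2 fold change (METTL16 KO over sgNS, vertical axis) of the 12 genes of the chromosome 4 cluster, drawn as bars at their distance in kb from the end of the cluster nearest UGT2B17, with the strand after each name. Green bars were higher and red bars lower at an adjusted p under 0.05, and the grey bars at the bottom edge are UGT2B17 and UGT2B28, which were not tested and have no value.

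Of the 12 genes of the chromosome 4 cluster, 10 were tested. Of these, 8 were higher and 2 lower, against 50.1% and 25.6% of all genes, and no other gene tested lies in the cluster. The lower genes, UGT2A1 and UGT2A2, overlap each other and lie between UGT2B4 and SULT1B1, both of which were higher. Genes on both strands were among those that were higher.

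Of 13 SULT genes 8 were tested, 6 were higher and 1 was lower, against 50.1% and 25.6% of all genes. SULT1A1, the main phenol sulfotransferase of adult liver, was at 28.94 and 27.96 TPM with sgNS against 10.03 and 11.50 TPM after METTL16 KO. Its log2 fold change of -1.40 (SE 0.075, adjusted p = 3.6e-08) was the largest fall among the 35 genes. SULT1A1 shares much sequence with SULT1A2 (0.86 and 1.84 TPM in sgNS, 0.43 and 0.65 TPM in METTL16 KO, not tested), and their sum went from 29.8 TPM in both sgNS libraries to 10.46 and 12.15 TPM. SULT1A3 and SULT1A4, which conjugate dopamine and other catecholamines, are copies of 1 gene on chromosome 16 and were listed with identical values in all 4 libraries, so they are 1 measurement. Counted once, they leave 5 of 7 SULT genes and 21 of 34 genes in all (61.8%) higher. Each was at 13.77 and 13.59 TPM in the sgNS libraries and 18.34 and 19.73 TPM in those of METTL16 KO (log2 fold change 0.47, adjusted p = 6.8e-05).

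SULT1B1, which sulfates thyroid hormone and small phenols, was at 1.77 and 1.41 TPM with sgNS against 4.24 and 4.03 TPM after METTL16 KO (log2 fold change 1.33, SE 0.16, adjusted p = 1.7e-05). SULT1E1, the estrogen sulfotransferase, is its neighbour in the chromosome 4 cluster and had a log2 fold change of 0.69 (adjusted p = 2.1e-03). SULT1C4, a fetal enzyme, had one of 0.53 (adjusted p = 5.3e-05). For SULT1C2, at 3.0 and 4.24 TPM in the sgNS libraries against 2.67 and 3.32 TPM in those of METTL16 KO, the groups overlapped. The change was -0.25 (95% interval -0.64 to 0.14, adjusted p = 0.21), and it passed as lower after median-ratio scaling (-0.44, adjusted p = 0.048), after quantile normalization (-0.50, adjusted p = 0.037) and without sgNS library 1 (-0.50, adjusted p = 0.033).

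SULT2A1, which sulfates dehydroepiandrosterone and bile acids, was the most abundant SULT, at 76.00 and 76.86 TPM with sgNS against 101.68 and 99.85 TPM after METTL16 KO (log2 fold change 0.40, adjusted p = 4.4e-06). With SULT1A1 lower and 4 other measurements of its family higher, the SULT1 genes as a whole summed to 75.52 and 75.78 TPM in sgNS and to 73.89 and 78.47 TPM in METTL16 KO, and these groups overlapped. The sum includes SULT1A3 and SULT1A4 each with its listed value, and the overlap depends on including both. Within that sum the share of SULT1A1 was 38.3% and 36.9% in sgNS and 13.6% and 14.7% in METTL16 KO.

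The GST genes moved in both directions. Of 17 genes 13 were tested, and 5 (38.5%) were higher and 5 lower, against 50.1% and 25.6% of all genes. Their median log2 fold change was -0.030. GSTP1, the pi-class enzyme that is scarce in normal hepatocytes and abundant in many tumours, was by far the most abundant gene of the whole set, at 2350.86 and 2333.97 TPM in the sgNS libraries and 2043.26 and 2070.35 TPM in those of METTL16 KO. On the log2 scale the change was -0.19 (SE 0.024, adjusted p = 2.9e-05), and after quantile normalization, which sets the upper end of each library equal, it turned to 0.058 (adjusted p = 0.049). GSTP1 made up 71.2% and 70.8% of the TPM of all 59 genes in sgNS and 62.2% and 62.4% in METTL16 KO. The 59 genes together therefore summed to nearly the same level in both groups, 3300 and 3295 TPM in sgNS and 3286 and 3316 TPM in METTL16 KO, whereas without GSTP1 they summed to 949.4 and 960.61 TPM and to 1243.05 and 1245.5 TPM.

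The alpha-class genes, which detoxify lipid peroxidation products and bind steroids and bilirubin, were lower or did not pass. GSTA1 was at 2.62 and 2.71 TPM with sgNS against 0.99 and 1.40 TPM after METTL16 KO (log2 fold change -1.11, SE 0.20, adjusted p = 4.0e-04). Its close copy GSTA2 was at 2.48 and 2.94 TPM in the sgNS libraries and 3.13 and 2.23 TPM in those of METTL16 KO, with overlapping groups and a log2 fold change of -0.030 (95% interval -0.43 to 0.37, adjusted p = 0.89). Because reads of this pair can be assigned to either gene, their sum is the safer value, and it was 5.1 and 5.65 TPM in sgNS and 4.12 and 3.63 TPM in METTL16 KO. GSTA4, which acts on the lipid aldehyde 4-hydroxynonenal, was the most abundant alpha gene, at 69.54 and 76.17 TPM with sgNS against 57.52 and 59.70 TPM after METTL16 KO (log2 fold change -0.31, adjusted p = 2.3e-04).

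Among the mu-class genes of chromosome 1, GSTM4 was at 24.62 and 21.62 TPM in the sgNS libraries and 11.25 and 10.38 TPM in those of METTL16 KO (log2 fold change -1.09, SE 0.079, adjusted p = 3.8e-07). GSTM1, the most abundant of them, was at 63.63 and 66.43 TPM with sgNS against 53.35 and 48.25 TPM after METTL16 KO (log2 fold change -0.36, adjusted p = 1.3e-04). GSTM2 was at 7.39 and 6.98 TPM in the sgNS libraries and 5.79 and 6.77 TPM in those of METTL16 KO. These groups did not overlap, but the log2 fold change of -0.20 did not pass (95% interval -0.42 to 0.033, adjusted p = 0.11), except after median-ratio scaling (-0.39, adjusted p = 0.0062) and quantile normalization (-0.40, adjusted p = 0.0066). GSTM3, which is read from the opposite strand, was at 13.66 and 12.90 TPM with sgNS against 16.97 and 17.26 TPM after METTL16 KO, a log2 fold change of 0.36 (adjusted p = 4.8e-04). GSTM1, GSTM2 and GSTM4 are close relatives that can share reads, and their sum was 95.64 and 95.03 TPM in sgNS and 70.39 and 65.4 TPM in METTL16 KO.

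The omega class, which reduces dehydroascorbate and handles arsenic, was higher. GSTO1 was at 144.95 and 136.04 TPM in the sgNS libraries and 200.97 and 202.01 TPM in those of METTL16 KO (log2 fold change 0.52, adjusted p = 5.2e-07). GSTO2 was at 0.94 and 1.03 TPM with sgNS against 2.61 and 1.94 TPM after METTL16 KO (log2 fold change 1.12, SE 0.21, adjusted p = 5.6e-04, or 0.72 with a pseudocount of 1). GSTK1, the kappa enzyme of mitochondria and peroxisomes, was at 116.08 and 113.97 TPM in the sgNS libraries and 144.37 and 146.31 TPM in those of METTL16 KO (log2 fold change 0.34, adjusted p = 8.6e-06). GSTZ1, maleylacetoacetate isomerase of tyrosine breakdown, was at 12.85 and 11.96 TPM with sgNS against 14.27 and 14.76 TPM after METTL16 KO. Its log2 fold change of 0.23 (adjusted p = 0.014) was close to the median of all genes and lost its call after median-ratio scaling (0.030) and quantile normalization (0.056), as well as without any one of sgNS library 2, METTL16 KO library 1 and METTL16 KO library 2. GSTT2B was at 0.63 and 0.99 TPM in the sgNS libraries and 3.79 and 0.59 TPM in those of METTL16 KO and did not pass (log2 fold change 0.88, 95% interval -0.45 to 2.20, adjusted p = 0.20). Its value rests on METTL16 KO library 1, without which it was -0.37, and its near-identical copy GSTT2 was listed at 0 in 3 libraries and at 1.28 TPM in METTL16 KO library 2. Reads of this pair can be assigned to either gene, and their sum was 0.63 and 0.99 TPM with sgNS against 3.79 and 1.87 TPM after METTL16 KO, without overlap. Its log2 ratio was 1.80, and 1.21 without METTL16 KO library 1. Without METTL16 KO library 2 the log2 fold change of GSTT2B was 2.12 (adjusted p = 0.0010).

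The microsomal enzymes also differed from each other. MGST3, which acts on lipid hydroperoxides and in leukotriene synthesis, was at 37.91 and 35.38 TPM with sgNS against 72.70 and 73.80 TPM after METTL16 KO (log2 fold change 1.00, SE 0.050, adjusted p = 2.0e-08). MGST1, which protects membranes from peroxidation, was at 37.28 and 37.96 TPM in the sgNS libraries and 28.67 and 29.65 TPM in those of METTL16 KO (log2 fold change -0.37, adjusted p = 6.4e-05). MGST2, the most abundant, was at 132.29 and 140.10 TPM with sgNS against 150.04 and 150.15 TPM after METTL16 KO. Its log2 fold change of 0.14 (adjusted p = 7.3e-03) lay below the median of all genes, turned to -0.056 after median-ratio scaling, and lost its call without either METTL16 KO library (adjusted p = 0.069 and 0.071).

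**Figure D4:**
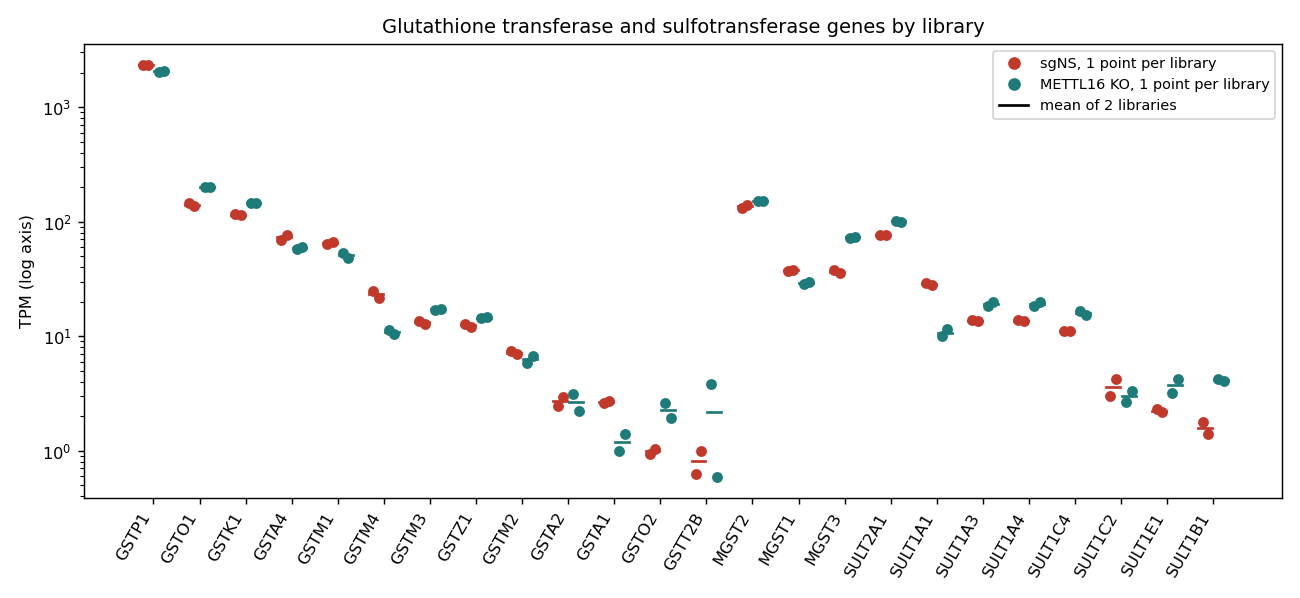
Level in TPM (log axis) of the SULT, GST and MGST genes tested in each of the 4 libraries, with 1 point per library and a line at each group's mean. SULT1A1, GSTM4 and GSTA1 have both METTL16 KO points well below the sgNS points, SULT1B1, GSTO2 and MGST3 have them well above, and GSTP1 stands far above all other genes in every library.

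AADAC, a serine esterase of the endoplasmic reticulum that hydrolyses drugs and lipid esters, lies on chromosome 3 (151814073 to 151828488, plus strand). It was at 7.84 and 6.98 TPM in the sgNS libraries and 39.36 and 44.83 TPM in those of METTL16 KO, a log2 fold change of 2.49 or 5.62-fold (SE 0.082, adjusted p = 8.3e-10). The 3 other AADAC-like genes were under 1 TPM, and 2 of them were listed at 0 in every library. CES2, the carboxylesterase that activates irinotecan, was at 13.27 and 14.47 TPM with sgNS against 15.40 and 15.87 TPM after METTL16 KO. The log2 fold change of CES2 was 0.17 (95% interval 0.016 to 0.33, adjusted p = 0.045), which equals the median of all genes to within 0.01, and it was -0.023 after median-ratio scaling and -0.0061 after quantile normalization. Its call was also lost without sgNS library 1 and without either METTL16 KO library. CES3 and CES4A averaged under 1 TPM.

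The 24 genes that were not tested were low in every library. Of these, 7 (AADACL3, AADACL4, GSTA3, GSTA5, SULT1C3, SULT4A1 and SULT6B1) were listed at 0 throughout, and 4 (SULT1A2, UGT1A3, UGT2B17 and GSTT2, given above) reached 1 TPM in at least 1 library. The highest value of the others was 0.99 TPM. In a fit over all genes above 0, UGT2B17 (log2 fold change 3.41, adjusted p = 0.0037), UGT1A4 (2.43, 0.0039), UGT1A3 (2.10, 0.017), CES3 (1.22, 0.031) and UGT1A9 (1.44, 0.047) were called higher and UGT1A8 (-1.36, 0.029) lower. At such levels the pseudocount of 0.1 sets much of each value.

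Genes of the steps around conjugation were counted in 7 lists of 98 genes, of which 80 were tested. Of these, 38 (47.5%) were higher and 29 (36.2%) lower, with a median log2 fold change of 0.090, beside 50.1%, 25.6% and 0.16 over all genes. After median-ratio scaling the counts were 30 and 36, where 33.8% and 38.9% of all genes were called. The mRNAs of cofactor supply did not move as one. For sulfation, PAPSS2 was higher (15.5 ± 0.55 to 31.8 ± 1.5 TPM, SD, n = 2 in each group here and below, log2 fold change 1.03, adjusted p = 8.8e-08), and PAPSS1, the other enzyme that makes the sulfate donor PAPS, was lower (69.7 ± 1.5 to 36.8 ± 1.5 TPM, -0.92, adjusted p = 3.4e-08). For glutathione, GCLC, the catalytic subunit of the first step of synthesis, had a log2 fold change of 0.50, while the cystine carrier SLC7A11 (-0.84) and glutathione reductase GSR (-0.52) were lower. For glucuronidation, UGP2, which makes UDP-glucose, had one of 0.44 and UGDH, which oxidises it to UDP-glucuronic acid, one of -0.17 (adjusted p = 2.4e-03). Over all 14 genes of cofactor supply, 6 (42.9%) were higher and 5 (35.7%) lower, against 50.1% and 25.6% of all genes.

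The list of enzymes that take conjugates apart also holds enzymes that process them further and sulfatases of other substrates, ARSB among them. Its count is therefore not one of deconjugation alone. Of its 10 genes tested, 6 were lower (against 25.6% of all genes) and 2 higher, with a median log2 fold change of -0.27. After median-ratio scaling 8 were lower, against 38.9% of all genes. GUSB, the lysosomal beta-glucuronidase, went from 69.2 ± 2.3 to 23.1 ± 0.57 TPM (log2 fold change -1.58, adjusted p = 7.3e-10). The sulfatase ARSB (-1.10) and the aminopeptidase ANPEP (-0.87), which trims glutathione conjugates, were lower as well, and GGT7 (0.43) and CNDP2 (0.39) were higher. The steroid sulfatase STS (-0.19, adjusted p = 0.27) did not pass, except after median-ratio scaling (-0.38, adjusted p = 0.041) and quantile normalization (-0.45, adjusted p = 0.024).

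Of 10 other conjugating enzymes tested, 6 were higher and 2 lower. BAAT, which joins bile acids to glycine and taurine, was at 0.19 and 0.40 TPM in the sgNS libraries and 2.34 and 2.73 TPM in those of METTL16 KO (log2 fold change 2.79, SE 0.30, adjusted p = 8.7e-06). With sgNS values this near the pseudocount of 0.1 the size depends on it, and it was 2.11 after quantile normalization. The N-acetyltransferase NAT1 (1.54) and the nicotinamide methyltransferase NNMT (0.88) were higher, and the histamine methyltransferase HNMT (-1.06) and the sulfurtransferase TST (-0.55) were lower. Of 17 other hydrolases 9 (52.9%) were higher and 7 (41.2%) lower, beside 50.1% and 25.6% of all genes, and 7 and 7 after median-ratio scaling. The microsomal epoxide hydrolase EPHX1 went from 48.0 ± 5.6 to 153 ± 1.8 TPM (log2 fold change 1.68, adjusted p = 3.2e-09), followed by the monoglyceride lipase MGLL (1.24) and the paraoxonase PON1 (1.07), and CMBL (-0.59), RBBP9 (-0.41) and EPHX2 (-0.39) had the largest falls.

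The list of carriers that export conjugates also holds the drug pump ABCB1, so its count is not one of conjugate export alone. Of its 7 genes tested, 3 (42.9%) were higher and 3 (42.9%) lower, against 50.1% and 25.6% of all genes. ABCB1, the drug pump P-glycoprotein, went from 18.7 ± 0.11 to 78.1 ± 0.18 TPM (log2 fold change 2.06, adjusted p = 7.6e-11), and ABCC3 (1.20), an exporter of glucuronides across the basolateral membrane, and ABCG2 (0.69) were also higher. ABCC1 (-0.56), ABCC5 (-0.34) and ABCC2 (-0.31), the canalicular exporter of glucuronides and glutathione conjugates, were lower. Of 5 uptake carriers tested, 4 (80.0%) were lower, against 25.6% of all genes. SLC22A7, an organic anion carrier, went from 5.08 ± 0.12 to 0.54 ± 0.057 TPM (log2 fold change -3.02, adjusted p = 8.1e-08), SLC22A9 (-0.68) and SLC22A3 (-0.44) followed, and SLCO2B1 (0.51) was higher.

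**Figure D5:**
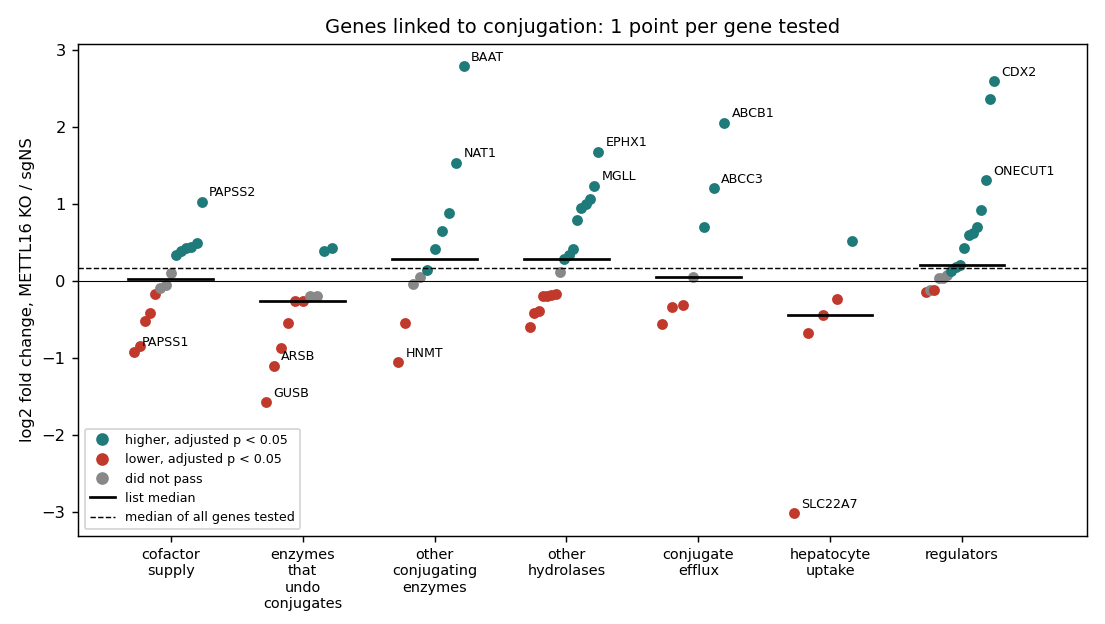
Log2 fold change (METTL16 KO over sgNS, vertical axis) of the 80 genes tested in 7 lists of steps around conjugation, with 1 point per gene, a bar at each list's median and a dashed line at the median of all genes tested. Green points were higher, red lower and grey did not pass at an adjusted p under 0.05. The median of the list named enzymes that undo conjugates (-0.27) and that of hepatocyte uptake (-0.44) lie below 0, and that of the regulators is 0.20.

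Of 17 transcription factors and partners known to act on these genes, 11 were higher (64.7%, against 50.1% of all genes) and 2 lower. After median-ratio scaling 8 were higher and 5 lower. CDX2, an intestinal homeobox factor, went from 18.8 ± 0.74 to 115 ± 8.0 TPM (log2 fold change 2.60, adjusted p = 5.1e-11). ONECUT1 (1.31), the aryl hydrocarbon receptor AHR (0.92), HNF4A (0.70), the antioxidant response factor NFE2L2 (0.63), CEBPB (0.59) and FOXA3 (0.43) were higher under both other scalings as well. ARNT (0.20), PPARA (0.19) and KEAP1 (0.13) were higher in the deposited values and not called after either scaling, where PPARA and KEAP1 had values of -0.010 and -0.070 with median-ratio scaling. FOXA1 (-0.15) and the bile acid receptor NR1H4 (-0.11) were lower. RXRA (0.079, adjusted p = 0.28), CEBPA (0.039, adjusted p = 0.37) and FOXA2 (0.037, adjusted p = 0.44) did not pass, though CEBPA and FOXA2 were called lower after median-ratio scaling. The drug-sensing receptors NR1I2 (PXR) and NR1I3 (CAR) averaged under 1 TPM in both groups and were not tested. These factors and the UGT genes were measured in the same 4 libraries, and whether one moved because of the other was not tested.

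The letters bound by AHR with ARNT (GCGTG) occur on either strand for 15 of the 47 member symbols with a promoter (31.9%) and in 32.2% of all promoters. The core letters of the antioxidant response element (TGACNNNGC) occur for 10 member symbols (21.3%), GSTP1 and GSTO1 among them, and in 10.9% of all promoters. Here too members were counted per symbol and all promoters singly, so the shares are not of like units.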

How the data were processed

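Messenger RNA of 4 Huh7 libraries was compared, 2 sgNS and 2 METTL16 KO, grouped by the labels. Per the methods, the authors used Cutadapt for trimming, STAR for alignment to GRCh38 and RSEM for quantification, with versions and annotation not given in the sources used here. The labels name both rRNA depletion and a stranded mRNA kit. The authors deposited 1 table of values per gene symbol, rounded to 2 decimals; the methods name RPKM, yet every column adds up to 1000000, and the deposited values were taken as TPM. Read counts cannot be had from TPM, which leaves the depth unknown and allows no counting interval. Nothing states that replicates were separate cultures beyond the methods' term biological replicates, so p-values measure the spread between these libraries.

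log2(TPM + 0.1) of the 11971 genes averaging 1 TPM or more was fitted by limma 3.58.1 (R 4.3.3; lmFit, eBayes with trend, no block, two-sided), with Benjamini-Hochberg adjustment over all of them. Exact permutation of 2 against 2 libraries cannot give a p below 0.333. The model was tested on simulated data. Positions are those of GENCODE 44, which matched 59 of 59 symbols, and 47 had a RefSeq promoter. Sums, sequences and figures were made with Python 3.11.15, numpy 2.4.6, pandas 2.3.3, biopython 1.88 and matplotlib 3.10.9. Named were METTL16, every gene of the families tested, those untested that reached 1 TPM in a library, up to 3 called genes per direction in each list, and the regulators tested, of which 2 are not reported here; EPS8L3 and 3 untested list genes were named after their values were seen. The gene families and lists were chosen with earlier results of these data known. Other scalings, filters, pseudocounts, a replicate block, no trend and each library left out were tried.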

Additional observations from a re-analysis of the deposited data

How the results depend on the processing

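METTL16 was lower under every alternative run, with a log2 fold change of -0.69 to -0.48 with all 4 libraries and -0.54 to -0.45 without 1 library. The 22 genes higher and 9 lower became 9 and 3 at an unadjusted p under 0.01 with a change of at least 1. They were 19 and 11 with median-ratio scaling, 20 and 10 after quantile normalization, 17 and 6 at a minimum mean of 5 TPM, 26 and 10 over all genes above 0, and 19 to 21 and 8 to 9 without 1 library. Of all genes, median-ratio scaling called 33.8% higher and 38.9% lower, and quantile normalization 36.9% and 35.5%. Of the 31 called genes, 26 kept direction and call under every alternative other than the fold threshold in which they were tested, and the exceptions were CES2, GSTP1, GSTZ1, MGST2 and UGT2A2. CES2 turned to -0.023 and MGST2 to -0.056 with median-ratio scaling, and quantile normalization turned CES2 to -0.0061 and GSTP1 to 0.058. GSTA2, never called, ranged from -0.27 to 0.21 without 1 library (above 0 without sgNS library 2, at 0.089, or METTL16 KO library 2), and GSTT2B from -0.37 without METTL16 KO library 1 to 2.12 without METTL16 KO library 2. Summed TPM had, with median-ratio scaling, a log2 ratio of -0.20 for all 59 genes, -0.19 for SULT1 and -0.026 for GST without GSTP1. Without 1 library it ranged from -0.0049 (without METTL16 KO library 2) to 0.0080 for all 59 genes and from -0.034 (without METTL16 KO library 2) to 0.053 for SULT1. The cause of these turns was not tested. The labels number the replicates, but same-numbered libraries did not deviate together (r = -0.044 over 11971 genes). With the replicate block 23 genes were higher and 9 lower, the list genes were 38 and 31, METTL16 was -0.50, and GSTT2B was gained (adjusted p = 0.0019). With no read counts the precision of genes near 1 TPM is unknown.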

Other observations

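EPS8L3, an EPS8-like signalling adaptor, is the other gene tested within the GSTM cluster of chromosome 1 (109656099 to 109775428). Its levels were 27.94 and 27.45 TPM with sgNS against 10.42 and 10.68 TPM after METTL16 KO, a change of -1.38 on the log2 scale (limma adjusted p = 8.9e-09). Among genes of the lists that averaged under 1 TPM and were not tested, the uptake carrier SLCO1B1 averaged 0.22 TPM in sgNS and 1.65 TPM in METTL16 KO. The N-acetyltransferase NAT2 averaged 0.15 and 1.17 TPM, and SLC27A5, the bile acid CoA ligase that acts before BAAT, averaged 1.47 and 0.29 TPM.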
